A study of Mus musculus with 6 samples.

Results

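The 8 genes described here encode large interferon-induced GTPases of the mouse: the guanylate-binding proteins (GBPs) Gbp2, Gbp3, Gbp4, Gbp6 and Gbp7, and the immunity-related GTPases (IRGs) Irgm1, Irgm2 and Igtp. They were taken by symbol from a gene table of 24394 entries, in which all 8 were found and all 8 passed the filter for low values. The table came from RNA sequencing of total RNA of the submandibular salivary gland of wild-type C57BL/6 mice. Control glands taken at time 0 were set against glands irradiated with 5 Gy and taken 6 h or 24 h later, and each of the 3 groups holds 2 libraries. Strain and genotype were shared by all groups and the animals' age is not given in the labels. Nothing in the labels ties the pair of libraries of a group to different animals, so the p-values below describe the spread among these samples, which may be technical.

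GBPs and IRGs are among the genes most strongly induced by interferon gamma, a cytokine of T and NK cells that signals through its receptor and the kinases JAK1 and JAK2. Promoters that answer to interferons can hold a palindromic element called GAS and an element called ISRE, the latter bound by factors of the IRF family. The proteins assemble on membranes around intracellular bacteria and parasites. In the mouse, Irgm1, Irgm2 and Igtp (also called Irgm3) are regulators that protect host membranes and hold the effector IRGs, such as Iigp1, inactive, while GBPs coat or break pathogen compartments and promote the caspase-11 response to bacterial lipopolysaccharide.

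Levels are given as FPKM, fragment counts scaled by a length for each gene and by the mapped total of the library, so that genes of different length can be set side by side. Whole-read steps could be recovered from the control and 6 h columns, and put these 4 libraries at 11830000 to 12580000 reads. The steps implied lengths of 2227, 4538 and 4316 bases for Irgm1, Gbp4 and Gbp6. Their annotated exon lengths were 5810, 7494 and 5954 bases, and those of the other members were closer to the implied ones. Levels of different genes depend on these lengths, which are unknown for the 24 h columns. The 24 h values had at most 6 digits (99.99% of values above 0), showed no steps of this kind, so that the depth of these libraries is unknown. The form of the 24 h values thus differs from that of the other columns, and a difference in quantification cannot be told apart from time in any 24 h comparison. In the deposited values the middle gene of all tested stood 0.20 higher on the log2 scale at 24 h than in control and 0.22 higher than at 6 h, which median-of-ratios size factors turned to -0.03 and -0.04. Values with these factors are therefore given beside the deposited ones. The acinar genes Aqp5 and Lpo were between 114 and 305 FPKM in every library, Slc12a2 between 146 and 204, and Tcn2 between 154 and 283 FPKM. Smgc, Dcpp1, Dcpp2 and Dcpp3 of the same list were not steady. Dcpp2 read 1.33 and 14822 FPKM in control replicates 1 and 2. The sum of the 9 genes followed mainly the Dcpp genes. It ran from 784 to 39449.8 FPKM between the controls and from 1373 to 25899 FPKM between the 24 h libraries. Control replicate 1 and, less so, 24 h replicate 1 were low in Smgc, in the Dcpp genes and in sublingual genes. The mucin gene Muc19 read 0.0178 and 178 FPKM in control replicates 1 and 2, and 2.25 and 149 FPKM in 24 h replicates 1 and 2. Each pair, that of 6 h included, differed in other genes of neighbouring tissue. In 6 h replicates 1 and 2, Amy1 read 24.4 and 5662 FPKM, Bpifa2 1399.9 and 31279 FPKM, and the adipocyte gene Adipoq 2.07 and 24.8 FPKM. In control replicates 1 and 2 these genes read 18.4 and 2945, 5.31 and 21486, and 1.18 and 28.0 FPKM. In 24 h replicates 1 and 2 they read 1612 and 17032, 5506 and 51025, and 28.1 and 13.7 FPKM. The epidermal keratin gene Krt10 was high in 24 h replicate 2, at 129 FPKM against 10.7 FPKM in 24 h replicate 1. Both 24 h libraries differed in genes of the granular convoluted tubules. Egf read 7322 and 5244 FPKM in control and 909 and 1024 FPKM at 24 h. Of 9 such genes, 6 were called lower and 3 higher than control, against 4.3% and 21% of all genes. Of the 3, Ren1 and Ren2 passed the filter only through their 24 h values. Leaving out 1 24 h library does not remove this difference. The FPKM totals of 24 h replicates 1 and 2 were 677320 and 1203218, against 866233 to 900281 in the other libraries. Results are given without these libraries and, where a call is lost, scaled to the same total, the latter and the removal of 24 h replicate 1 with control replicate 1 being chosen after seeing the data.

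In GRCm38, with annotation from GENCODE M21, Gbp2 lies on chromosome 3 at 142620602 to 142638008, Gbp3 at 142560026 to 142573209 and Gbp7 at 142530342 to 142550149, all on the plus strand. Gbp4 (105115767 to 105139586) and Gbp6 (105270702 to 105293698) lie on the minus strand of chromosome 5. Irgm1 is on the minus strand of chromosome 11 at 48861968 to 48871683, and Irgm2 (58199618 to 58222782) and Igtp (58199556 to 58207591) overlap on the plus strand of the same chromosome. All 8 are annotated as protein coding. Members of such families share sequence, which limits how reads can be assigned. Of all 50-base stretches in the annotated transcripts of Gbp6, 70.7% also occurred in transcripts of another gene, chiefly the neighbouring model Gm43302 and Gbp10. This share was 12.7% for Gbp7, 11.8% for Igtp, 7.8% for Gbp4 and for Irgm2, 3.8% for Gbp3, 2.0% for Gbp2 and 0.4% for Irgm1. Igtp and Irgm2 share annotated exon bases (8.0% of the exon length of Igtp), so part of their reads cannot be told apart. Gbp6 is therefore uncertain as a single gene, and Irgm1, Gbp2 and Gbp3 are the members least touched by shared sequence.

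Promoter sequences of RefSeq (GRCm38.p6, 250 bases before to 50 bases after the start) were found for 6 of the 8 genes, Gbp3 with 2 starts. They are shown as a description, and their relation to the 24 h values was not tested. Of them 5 are printed: Gbp2 and Irgm1 with ISRE matches alone, Gbp7 with both elements well apart, and Igtp and Irgm2 with both elements side by side. Capitals mark matches to GAS (TTCNNNGAA, which reads the same on both strands) or ISRE (TTTC, any 2 bases, TTTC, or on the opposite strand GAAA, any 2 bases, GAAA), and all read 5′ to 3′ along the gene.
Gbp2, chr3:142620413-142620712, plus strand: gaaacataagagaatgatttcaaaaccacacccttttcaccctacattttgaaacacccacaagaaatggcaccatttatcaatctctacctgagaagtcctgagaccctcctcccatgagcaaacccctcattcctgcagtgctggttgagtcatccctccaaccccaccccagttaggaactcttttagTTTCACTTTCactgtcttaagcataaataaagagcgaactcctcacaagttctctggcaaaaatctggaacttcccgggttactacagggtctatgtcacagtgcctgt
Gbp7, chr3:142530086-142530385, plus strand: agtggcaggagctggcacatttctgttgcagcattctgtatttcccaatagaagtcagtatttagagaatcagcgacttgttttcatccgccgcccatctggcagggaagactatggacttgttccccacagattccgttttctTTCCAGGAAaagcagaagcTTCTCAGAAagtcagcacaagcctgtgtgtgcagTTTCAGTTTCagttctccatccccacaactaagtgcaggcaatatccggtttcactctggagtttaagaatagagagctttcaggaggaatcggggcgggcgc
Irgm1, chr11:48871371-48871670, minus strand: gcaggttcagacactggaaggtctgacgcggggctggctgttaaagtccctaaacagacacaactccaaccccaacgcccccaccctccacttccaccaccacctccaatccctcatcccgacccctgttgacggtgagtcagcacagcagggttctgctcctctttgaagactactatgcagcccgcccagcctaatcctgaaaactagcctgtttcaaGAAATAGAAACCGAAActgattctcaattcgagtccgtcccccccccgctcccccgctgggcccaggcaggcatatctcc
Igtp, chr11:58199306-58199605, plus strand: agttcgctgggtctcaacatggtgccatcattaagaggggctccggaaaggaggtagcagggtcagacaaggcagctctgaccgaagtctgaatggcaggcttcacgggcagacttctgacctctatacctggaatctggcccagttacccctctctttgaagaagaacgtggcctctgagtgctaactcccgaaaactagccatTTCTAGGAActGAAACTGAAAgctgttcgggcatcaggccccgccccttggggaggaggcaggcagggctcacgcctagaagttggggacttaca
Irgm2, chr11:58214727-58215026, plus strand: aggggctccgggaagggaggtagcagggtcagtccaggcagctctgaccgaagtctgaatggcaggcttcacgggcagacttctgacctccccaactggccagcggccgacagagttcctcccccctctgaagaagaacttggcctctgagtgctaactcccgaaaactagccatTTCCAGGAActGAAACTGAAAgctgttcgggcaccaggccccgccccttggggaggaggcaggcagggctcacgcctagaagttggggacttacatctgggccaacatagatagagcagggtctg

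An ISRE match was present in 6 of the 7 promoters of members, with the downstream start of Gbp3 as the exception, against 3.44% of 32851 RefSeq promoters. A GAS match was present in 3 of the 7 (Gbp7, Igtp and Irgm2), against 8.3% of all promoters. Such matches were not particular to the members. Of 13 promoters of other family genes, 6 held an ISRE match (46.2%) and 4 a GAS match (30.8%). In Igtp and Irgm2 the GAS match lay 2 bases before the ISRE match, and the same spacing of 2 bases was found in the promoters of the effector IRG genes Tgtp1 and Tgtp2. Over an aligned stretch of 264 bases the promoters of Igtp and Irgm2 were 93.6% identical. Irgm1 had 2 overlapping ISRE matches between 30 and 15 bases before its start and no GAS match in this window, and the upstream start of Gbp3 likewise had 2 overlapping ISRE matches. Gbp2 had 1 ISRE match, 59 to 50 bases before its start. These matches are a description of letters and not evidence of binding.

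The first comparison asked how the GTPase genes stood 24 h after irradiation. All 8 rose against control, by 1.88-fold (Gbp6) to 5.5-fold (Gbp2) in mean FPKM, and the groups did not overlap for any of them. Gbp2, a GBP that targets pathogen vacuoles, read 5.64 and 7.51 FPKM in the controls, and 39.5 and 32.8 FPKM 24 h after irradiation. Both 24 h libraries were far above both controls, and the fold change, 2.30 ± 0.17 on the log2 scale (SE, adjusted p = 0.000415 in limma), ranked 132 of 11674 genes. Of all genes tested, 21% were called higher in this comparison and 53.1% had 24 h values above both controls, so groups that do not overlap are common here. In the lower direction 4.3% of all genes were called and 13.3% did not overlap. The median log2 fold change of the 8 genes was 1.63, against 0.20 for all genes tested. With median-of-ratios factors 7 of the 8 passed, against 9.35% of all genes called higher and 8.31% called lower, and their median was 1.39. The same shares of all genes apply to the 24 h counts of the other gene lists below.

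Gbp3, which lies on chromosome 3 as Gbp2 does, rose from 3.24 and 3.13 FPKM to 14.4 and 14.1 FPKM. Its log2 fold change was 1.86 ± 0.12 (adjusted p = 0.000297 in limma). Gbp4, the lowest member in the controls, rose from 1.43 and 1.53 FPKM to 7.68 and 6.99 FPKM, a log2 fold change of 1.75 ± 0.22. Gbp7, linked in mice to autophagy and oxidative defence, rose from 2.39 and 2.14 FPKM to 7.41 and 6.88 FPKM (1.32 ± 0.16). In these 3 genes the 24 h libraries lay close together and well above control. Gbp6 had the smallest difference of the 8, from 3.17 and 3.51 FPKM to 7.19 and 5.34 FPKM (0.73 ± 0.17, adjusted p = 0.0239). Its call was lost under median-of-ratios scaling (0.50, adjusted p = 0.0786), with quantile normalization (0.0840) and without the expression filter (0.0532). It was also lost without control replicate 1 (adjusted p = 0.0941), control replicate 2 (0.0619) and 24 h replicate 1 (0.125).

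Among the IRGs, Irgm1, a regulator that sits on Golgi and lysosomal membranes in the mouse, was the highest member in every group. It rose from 16.1 and 16.5 FPKM to 53.4 and 44.1 FPKM, a log2 fold change of 1.52 ± 0.12 (adjusted p = 0.000486). Igtp, the regulator found on the endoplasmic reticulum and lipid droplets, rose from 7.89 and 6.14 FPKM to 31.7 and 26 FPKM (1.90 ± 0.15). Irgm2 rose from 5.81 and 6.5 FPKM to 21.2 and 15.6 FPKM (1.42 ± 0.16). For these 3 regulators the lower 24 h library exceeded the higher control, and 24 h replicate 1 was the higher of the pair. When both control replicate 1 and 24 h replicate 2 were removed, which leaves 1 library in each of these groups and assumes that it varies like the 6 h pair, 3 of the 8 genes passed. These were Gbp2, Irgm1 and Igtp (adjusted p = 0.0438, 0.0395 and 0.0320), against 1.69% of all genes called higher, and the log2 fold changes of the 8 then ran from 0.86 to 2.25. When 24 h replicate 1 was removed in place of replicate 2, the same 3 genes passed (adjusted p = 0.0474, 0.0448 and 0.0338), against 2.21% of all genes called higher, and the range was 0.49 to 1.99. With each library scaled to the same FPKM total, 7 of the 8 passed, against 5.23% of all genes called higher, Gbp6 being the exception (adjusted p = 0.402).

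**Figure D1:**
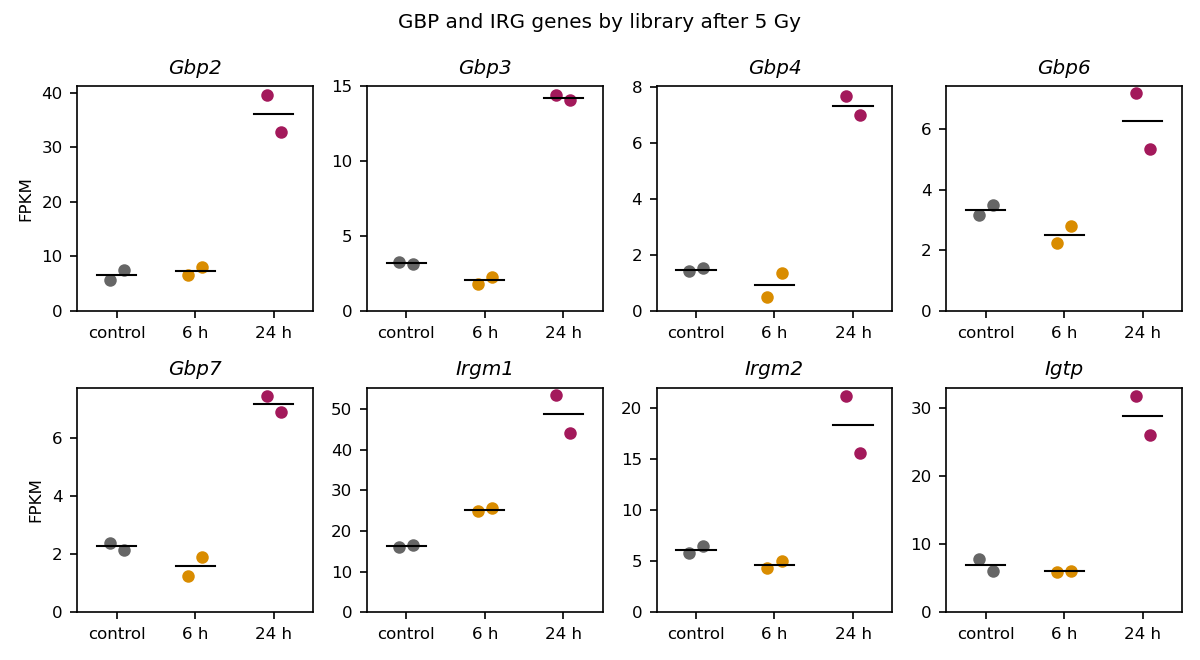
FPKM (vertical axis, from 0, a different range in each panel) of the 8 genes in control, 6 h and 24 h glands; each point is 1 library and each line the mean of 2. Both 24 h points lie above all control and 6 h points in every panel, and Irgm1 is the gene whose 6 h points, 24.8 and 25.7 FPKM, lie above both controls.

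At 6 h none of the 8 genes passed the test (0 higher and 0 lower in limma, of which 2, Gbp3 and Irgm1, had an unadjusted p under 0.05), in a comparison that called 0.694% of all genes higher and 0.317% lower (0.737% and 0.334% with median-of-ratios factors, and 0.668% higher when scaled to the same FPKM total; no member passed under either). Irgm1 was at 24.8 and 25.7 FPKM, above both controls, and its difference of 0.60 ± 0.12 on the log2 scale did not pass (adjusted p = 0.0957). Its values rested on 443 and 435 reads in control and 671 and 720 reads at 6 h. Over all settings tried, its log2 fold change at 6 h ran from 0.58 to 0.64 and its adjusted p from 0.0732 to 1.0. Of all tested genes, 19.4% had 6 h values above both controls. In limma 1724 of all 11674 genes tested had an unadjusted p under 0.05 at 6 h. The same background applies to such 6 h counts of the other gene lists below.

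The other members differed less or lay on the opposite side. Gbp3 was at 1.78 and 2.30 FPKM at 6 h, a log2 fold change of -0.47 ± 0.12 (adjusted p = 0.182), from 64 and 86 reads against 119 and 110 in control. Gbp4 was at 0.509 and 1.35 FPKM (-0.40 ± 0.22), and its lowest library, 6 h replicate 1, held 28 reads against 77 in 6 h replicate 2 and 80 and 82 in control. Without 6 h replicate 1 the log2 fold change of Gbp4 was -0.08. Gbp7 was at 1.25 and 1.91 FPKM (-0.35 ± 0.16), Gbp6 at 2.25 and 2.80 FPKM (-0.30 ± 0.17), Irgm2 at 4.36 and 5.0 FPKM (-0.33 ± 0.16) and Igtp at 5.99 and 6.09 FPKM (-0.18 ± 0.15). In these 6 genes both 6 h libraries lay below both controls, a pattern that 24.9% of all tested genes showed. Gbp2 was at 6.65 and 8.0 FPKM and overlapped with control (0.14 ± 0.17, adjusted p = 0.761), and without control replicate 1 its log2 fold change was -0.04.

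Set against 6 h, all 8 genes were higher at 24 h, in a comparison that called 23.4% of all genes higher and 4.31% lower (10.7% and 9.47% with median-of-ratios factors, under which all 8 also passed). Of all genes, 56% lay higher without overlap and 14.7% lower. This comparison shares the 24 h libraries with the one before, and both comparisons with control share the control libraries. The log2 fold change was 2.33 ± 0.12 for Gbp3 (adjusted p = 0.000119), 2.16 ± 0.17 for Gbp2, 2.14 ± 0.22 for Gbp4, 2.08 ± 0.15 for Igtp, 1.76 ± 0.16 for Irgm2 and 1.67 ± 0.16 for Gbp7. Gbp6 and Irgm1 had the smallest values, 1.04 ± 0.17 and 0.91 ± 0.12 (adjusted p = 0.00677 and 0.00301). The call of Gbp6 was lost without 6 h replicate 1 (adjusted p = 0.0538). After removal of control replicate 1 and 24 h replicate 2, 5 of the 8 passed, where 5.09% of all genes were called higher (all but Gbp4, Gbp6 and Gbp7, at adjusted p = 0.0629, 0.0577 and 0.0515). With 24 h replicate 1 removed in place of replicate 2, 4 passed, against 5.16% of all genes called higher, and Irgm1 was lost too (adjusted p = 0.0548). Scaled to the same FPKM total, 6 passed, against 6.17% of all genes, and Gbp6 and Irgm1 did not (adjusted p = 0.0807 and 0.278).

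The order of levels within each group, which rests on the length used for each gene, changed with time. In control glands it was Irgm1, Igtp, Gbp2, Irgm2, Gbp6, Gbp3, Gbp7 and Gbp4, from 16.3 to 1.48 FPKM in the mean. The ranges of Igtp and Gbp2, of Gbp2 and Irgm2, and of Gbp6 and Gbp3 overlapped, so these neighbours did not differ beyond their spread. At 6 h Irgm1 again came first at 25.3 FPKM, followed by Gbp2 at 7.32 FPKM and Igtp at 6.04 FPKM, and the 4 lowest genes, Gbp6, Gbp3, Gbp7 and Gbp4, overlapped with their neighbours. At 24 h the order was Irgm1 (48.7 FPKM), Gbp2 (36.2), Igtp (28.8), Irgm2 (18.4), Gbp3 (14.2), Gbp4 (7.33), Gbp7 (7.15) and Gbp6 (6.27 FPKM), with overlap among the last 3 only. Gbp6, the fifth in control, was the lowest at 24 h.

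Shares within a library do not depend on how the library was scaled as a whole, although a gene-specific difference in quantification would still enter them. The summed level of the 8 genes read 45.7 and 47 FPKM in control libraries, 47.6 and 53.2 FPKM in 6 h libraries, and 182 and 152 FPKM in 24 h libraries. With the FPKM total of each library set to 1000000, the sums became 52 and 53 (control libraries), 52.9 and 61.4 (6 h libraries) and 269 and 126 (24 h libraries), so that the 24 h libraries differed far more on this scale and still lay above the rest. Irgm1 made up 35.3 and 35.2% of this sum in control libraries, 52.2 and 48.4% in 6 h libraries, and 29.3 and 29% in 24 h libraries, with no overlap between groups. The share of Gbp2 was between 12.3 and 16% in the control and 6 h libraries, and 21.7 and 21.6% in the 24 h libraries. That of Gbp6 was 6.94 and 7.47% in control libraries, 4.73 and 5.27% in 6 h libraries, and 3.94 and 3.52% in 24 h libraries. Irgm1 stood above the mean of the other 7 genes by 2.13 on the log2 scale in each control library, by 3.38 and 2.97 in the 6 h libraries, and by 1.85 and 1.82 in the 24 h libraries. With 2 libraries against 2, an exact permutation test of such a difference cannot go below p = 0.333 (two-sided), so these shares are given as values.

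**Figure D2:**
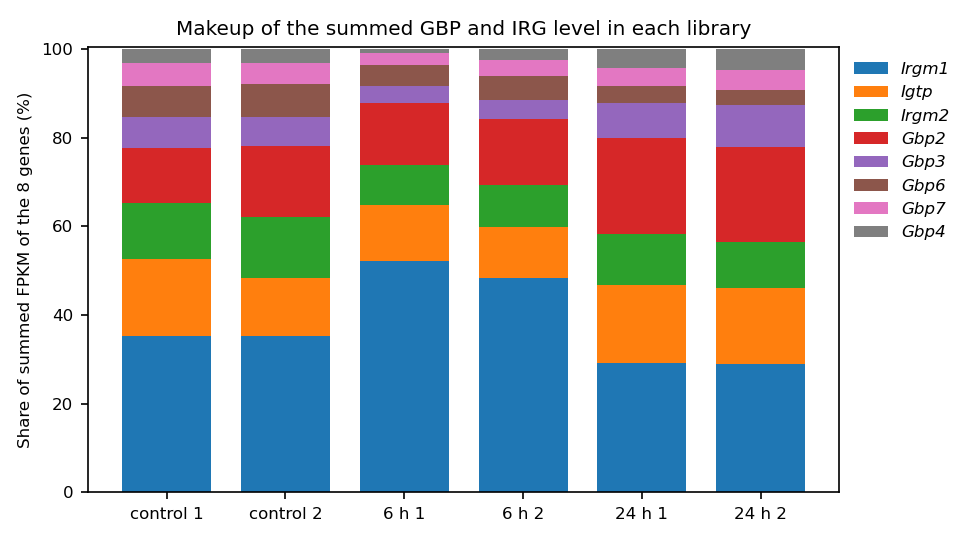
Share of each of the 8 genes in their summed FPKM (percent, vertical axis from 0) in each of the 6 libraries. Irgm1 takes 52.2 and 48.4% at 6 h against 35.3 and 35.2% in control, and Gbp2 takes 21.7 and 21.6% at 24 h.

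The rest of the family was examined from a list of 22 further genes: other GBPs, other IRGs and the atlastins, which are related GTPases of the endoplasmic reticulum. Of these, 14 passed the filter, 5 of them (Gbp8, Gbp10, Tgtp1, Gm12250 and Gm4951) only through their 24 h values, so that these had to differ. At 24 h, 12 of the 14 rose against control and 0 fell (9 and 0 with median-of-ratios factors). The median log2 fold change was 1.51. These counts and this median cover all 14 genes, those 5 included. Of the 9 that averaged at least 1 FPKM without the 24 h libraries, 7 rose. The effector Iigp1, which binds to and disrupts parasite vacuoles, read 5.84 and 6.55 FPKM in the controls, 2.09 and 2.47 FPKM in 6 h libraries, and 35.5 and 30.1 FPKM in 24 h libraries. Its 6 h libraries were below and its 24 h libraries above both controls, with log2 fold changes of -1.14 ± 0.13 (adjusted p = 0.0181) and 2.23 ± 0.13 (adjusted p = 0.000165). The fall at 6 h was the single call of the family list at that time, and it was lost when any 1 of the 6 libraries was removed (adjusted p of 0.0870 where control replicate 1 was removed, up to 0.205 where 6 h replicate 1 was), without the filter (0.0592) and when only these 2 groups were fitted (0.115).

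The effector genes Tgtp1, Tgtp2 and Ifi47 rose at 24 h by 1.85 ± 0.17, 1.89 ± 0.16 and 2.0 ± 0.18 on the log2 scale. Their log2 fold changes at 6 h were -0.34 ± 0.17, -0.53 ± 0.16 and -0.57 ± 0.18 and did not pass. Gbp5, which promotes inflammasome assembly, rose by 1.34 ± 0.18, Gbp8 by 1.82 ± 0.17, Gbp9 by 1.63 ± 0.19 and Gbp10 by 1.79 ± 0.19 at 24 h. Gm12250 rose by 1.39 ± 0.15. Gm4951 had a log2 fold change of 0.99 ± 0.25 (adjusted p = 0.0318) whose call was lost with median-of-ratios factors (0.0728) and without any 1 of 5 libraries, namely control replicate 1 (0.118), 6 h replicate 1 (0.0573), 6 h replicate 2 (0.0581), 24 h replicate 1 (0.0550) and 24 h replicate 2 (0.129). Below the filter, Gbp2b read 0.345 and 0.360 FPKM in the controls (12 reads each), 0.0292 and 0.0846 FPKM in 6 h libraries (1 and 3 reads) and 1.58 and 1.54 FPKM in 24 h libraries. Irgq, a distant IRG-like gene, had log2 fold changes of -0.04 ± 0.13 at 6 h and -0.02 ± 0.13 at 24 h. The atlastin Atl1 was at 0.10 ± 0.20 at 24 h, and Atl2 and Atl3 had 0.54 ± 0.10 and 0.56 ± 0.12, calls that were lost under median-of-ratios scaling (adjusted p = 0.118 and 0.132). They were also lost without control replicate 1 (0.0594 and 0.0788), 24 h replicate 1 (0.0878 and 0.126) and 24 h replicate 2 (0.0580 and 0.0918).

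**Figure D3:**
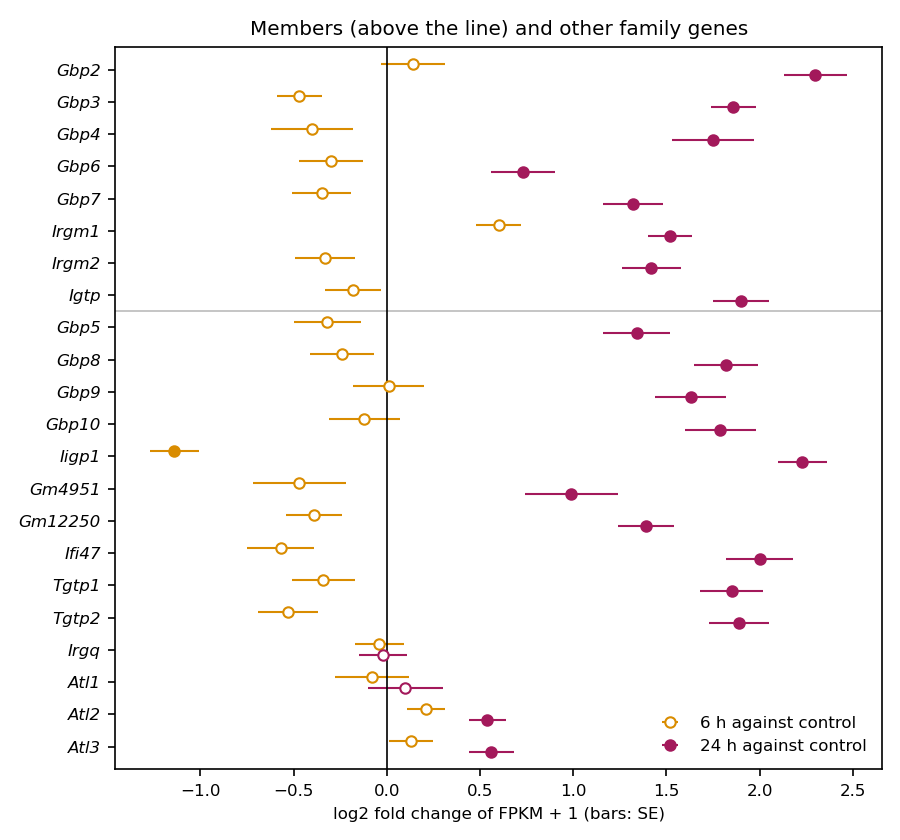
Log2 fold change of FPKM + 1 against control (horizontal axis, bars are SE) at 6 h and 24 h for the 8 genes (above the grey line) and the 14 tested further family genes; filled points passed at an adjusted p under 0.05. Iigp1 is the single filled point at 6 h, at -1.14, and the 24 h points of the GBPs and IRGs other than Irgq lie between 0.73 and 2.30.

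Upstream of the GTPases, the ligand gene Ifng was near the limit of detection, with 0 and 0.210 FPKM in the controls, 0.0683 and 0.0659 FPKM in 6 h libraries and 0.276 and 0.540 FPKM in 24 h libraries, and was under the filter. Ifnb1, which encodes interferon beta, was listed at 0 in all 6 libraries. Of the 6 interferon receptor genes, 0 passed at 6 h (1 had an unadjusted p under 0.05). At 24 h 21% of all genes were called higher, or 9.35% with median-of-ratios factors. Of the receptor genes 3 rose, or 1 with these factors. That gene, Ifnar2, a chain of the type I receptor, rose from 11.9 and 10.9 FPKM to 34.4 and 36.4 FPKM (1.56 ± 0.11). The interferon gamma receptor genes Ifngr1 and Ifngr2 had 24 h log2 fold changes of 0.49 ± 0.13 and 0.41 ± 0.12, and 0.23 and 0.15 with these factors (adjusted p = 0.283 and 0.398). Both calls were lost without control replicate 1 (adjusted p = 0.121 and 0.165), 6 h replicate 1 (0.0750 and 0.0853), 6 h replicate 2 (0.0745 and 0.0851), 24 h replicate 1 (0.171 and 0.214) and 24 h replicate 2 (0.165 and 0.0889), and that of Ifngr2 without control replicate 2 (0.0579).

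Of 12 JAK-STAT genes, Socs1 and Socs3 passed the filter only through their 24 h values. At 6 h 0 of the 12 passed (2 at an unadjusted p under 0.05). At 24 h 6 rose (3 with median-of-ratios factors, Socs1 and Ptpn2 among them). Of all genes 21% were called higher (9.35% with these factors). Without Socs1 and Socs3, 4 of 10 rose. The feedback inhibitor gene Socs1 read 0.545 and 0.379 FPKM in the controls, 0.123 and 0.0594 FPKM in 6 h libraries, and 2.21 and 3.56 FPKM in 24 h libraries (1.39 ± 0.22). Ptpn2, a phosphatase that dampens JAK signalling, rose by 1.99 ± 0.12 on the log2 scale. Jak1 and Jak2 did not pass at 24 h, with 0.11 ± 0.11 and 0.29 ± 0.13. Of the 8 tested regulatory transcription factors, 0 passed at 6 h (3 at an unadjusted p under 0.05) and 4 rose at 24 h (3 with median-of-ratios factors). The fourth, Irf5, had 0.57 ± 0.15 (adjusted p = 0.0400), a call lost with these factors (0.165), without control replicate 2 (0.129), 6 h replicate 1 or 2 (0.0643 each), 24 h replicate 1 (0.165) and 24 h replicate 2 (0.140). Irf1, which binds ISRE elements and is itself induced by interferon gamma, read 6.75 and 9.59 FPKM in the controls, 6.38 and 6.60 FPKM in 6 h libraries and 22.4 and 20.6 FPKM in 24 h libraries (1.31 ± 0.16). Nlrc5, the activator of MHC class I genes, rose by 0.96 ± 0.13 and Irf7 by 1.55 ± 0.17, while Irf8 had 0.36 ± 0.16 and did not pass. The call of Nlrc5 was lost when scaled to the same FPKM total (adjusted p = 0.14).

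Other targets of interferon gamma moved in the same direction at 24 h. Of 22 tested, 20 rose and 0 fell (16 and 0 with median-of-ratios factors). Of the 20 that passed the filter without the 24 h libraries, 18 rose. The median log2 fold change of 1.29 includes Cd274 and Cxcl11, which passed the filter only through their 24 h values. At 6 h 0 of 22 passed the test (5 at an unadjusted p under 0.05). The chemokine Cxcl9 rose by 2.09 ± 0.17, the surface antigen gene Ly6a by 2.14 ± 0.15 and the tetherin gene Bst2 by 1.95 ± 0.14. Of 22 tested genes of the type I interferon response, 16 rose at 24 h (11 with median-of-ratios factors), with a median of 1.0. Among them Ifit3 rose by 2.16 ± 0.23, Ifit1 by 1.78 ± 0.20 and Zbp1, a sensor of nucleic acids, by 2.97 ± 0.35. At 6 h 0 of these 22 passed, and 4 had an unadjusted p under 0.05, against 1724 of all 11674 genes tested. Their median was 0.19 where that of the 8 GTPase genes was -0.32 and that of all genes -0.02. The type I list and the GTPase genes were not tested against each other.

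**Figure D4:**
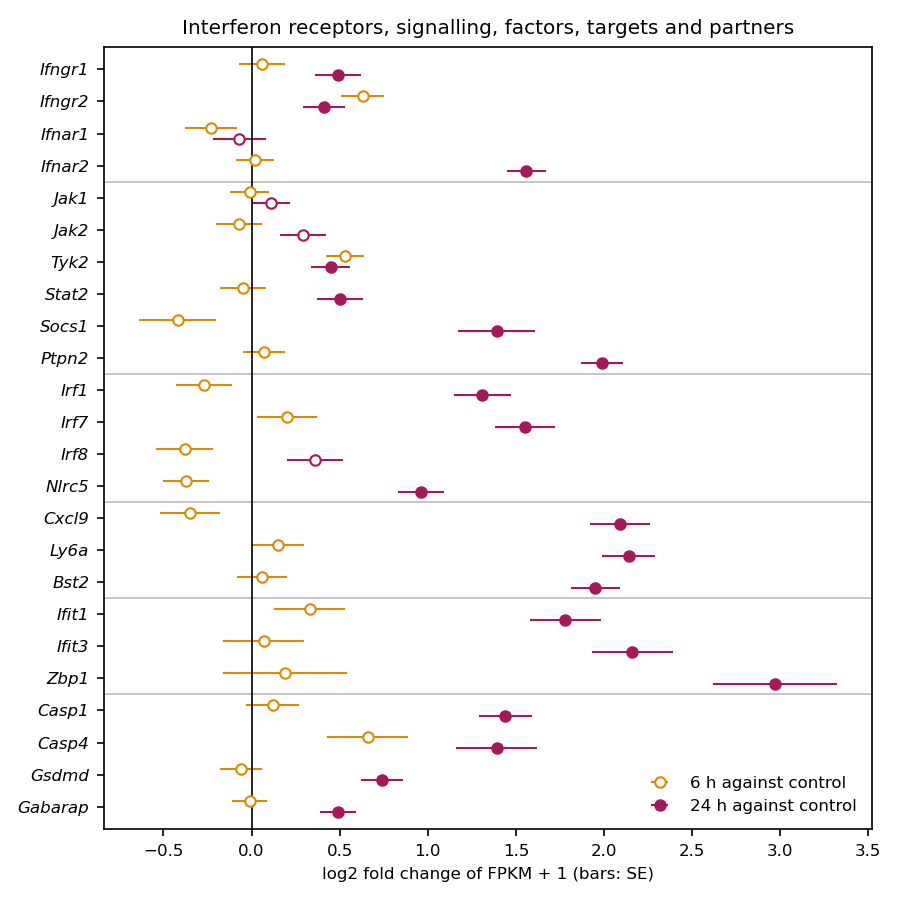
Log2 fold change of FPKM + 1 against control (horizontal axis, bars are SE) at 6 h and 24 h, with grey lines between receptors, signalling genes, transcription factors, interferon gamma targets, type I targets and partner genes; filled points passed at an adjusted p under 0.05. No gene shown is filled at 6 h, and Jak1, Jak2, Ifnar1 and Irf8 are open at 24 h.

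The machinery that works with GBPs and IRGs was described from a list in the same way. It held genes for ATG8 conjugation, ubiquitin signalling, prenylation and inflammasomes. Of 23 tested, 8 rose and 0 fell at 24 h (4 and 1 with median-of-ratios factors). Of all genes, 21% were called higher and 4.3% lower (9.35% and 8.31% with these factors). The median of the list was 0.35 against 0.20 for all genes. Of the 21 that passed the filter without the 24 h libraries, 7 rose. Casp1, the caspase of the canonical inflammasome, rose by 1.44 ± 0.15 and Casp4, which encodes mouse caspase-11, by 1.39 ± 0.23. Gsdmd, the pore protein that these caspases cleave, rose by 0.74 ± 0.12 (adjusted p = 0.00905). Its call was lost without 24 h replicate 2 (0.0550) and when scaled to the same FPKM total (0.375). Gabarap, an ATG8 protein that helps IRGs and GBPs reach membranes in the mouse, had 0.49 ± 0.10, a call lost with median-of-ratios factors (0.21, adjusted p = 0.165), without control replicate 1 (0.0626) or control replicate 2 (0.0573) and without 24 h replicate 1 (0.0782). At 6 h 0 of the 23 passed (3 at an unadjusted p under 0.05). Removal of control replicate 1 and 24 h replicate 2 leaves 1 library in each of these groups. Most calls of the genes described outside the 8 members were then lost at 24 h against control. The same held for the calls over all genes.

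Immune cell markers had their lowest sums at 6 h and their highest at 24 h for T and NK cells and for macrophages. In bulk samples, fewer cells of a type and less RNA per cell cannot be told apart. The summed level of 16 T and NK cell markers ran from 24.8 to 25.7 FPKM in the controls, from 10.4 to 11.6 FPKM in 6 h libraries and from 51.4 to 66.3 FPKM in 24 h libraries, with none of the 16 at 0 in a group. Of the 11 that were tested, 0 passed at 6 h (7 at an unadjusted p under 0.05, median -0.74). At 24 h 5 rose (3 with median-of-ratios factors), against 21% of all genes called higher (9.35% with these factors). The 24 h median of 0.85 includes Cd3e, Cd4 and Lck, which passed the filter only through their 24 h values. Of the other 8 tested genes 3 rose. The summed level of 16 macrophage and monocyte markers ran from 351 to 367 FPKM in the controls, from 261 to 325 FPKM in 6 h libraries and from 900.5 to 1106 FPKM in 24 h libraries, with none at 0. At 6 h, 1 of the 16 was higher (Cd14) and 1 lower (Mrc1), against 0.694% and 0.317% of all genes. Their median at 6 h was -0.30. At 24 h 11 rose and 0 fell (6 and 0 with median-of-ratios factors), with a median of 0.83. Fibroblast markers (6 genes) summed to 259 to 309, 202 to 221 and 328 to 401 FPKM in control, 6 h and 24 h, and endothelial markers (10 genes) to 20.8 to 31.5, 20.2 to 24.1 and 26 to 35.3 FPKM. Markers of neutrophils (5 genes, 0.634 to 1.99 FPKM in control, 0.948 to 7.34 FPKM at 6 h with Cxcr2 at 0, and 5.75 to 16.3 FPKM at 24 h) and of epidermis (4 genes, 1.34 to 1.66, 0.994 to 1.43 and 17 to 199 FPKM, with Krt77 at 0 at 24 h) had their highest library at 24 h. The part of these cells in the values of the GTPase genes was not tested.

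**Figure D5:**
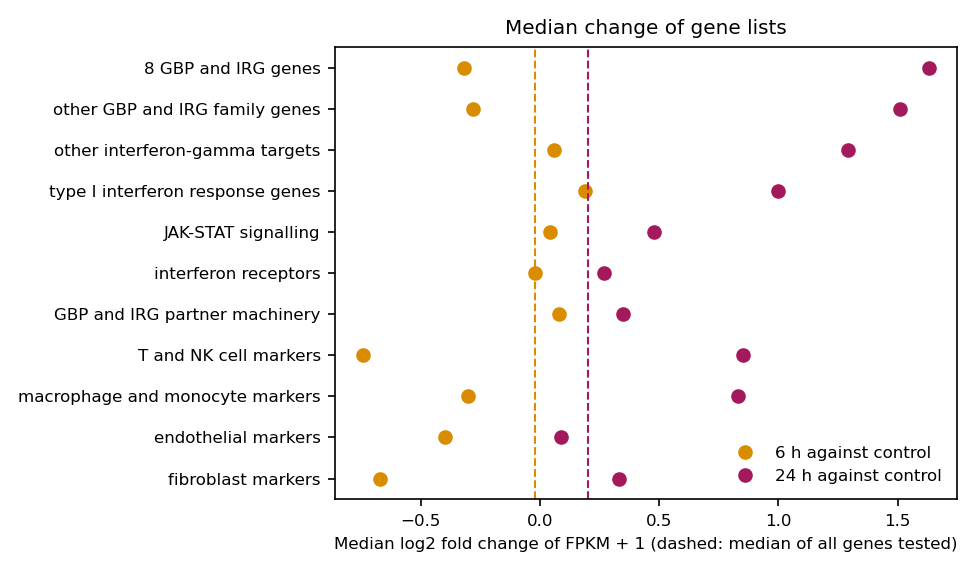
Median log2 fold change of FPKM + 1 against control (horizontal axis) of the tested genes of each list at 6 h and 24 h; dashed lines mark the median of all genes tested (-0.02 and 0.20). The 8 GTPase genes lie at -0.32 and 1.63, and T and NK cell markers at -0.74 and 0.85. Several lists other than the 8 genes hold genes that passed the filter only through their 24 h values, and their medians include these.

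The genes whose values over the 6 libraries were most like the mean standardized profile of the 8 members were Gbp10 (Pearson r = 0.9994), Fbxw2 (0.9993), Clk2 (0.9988), Eif4e2 (0.9987) and Uqcr11 (0.9986). These are descriptions over 6 libraries that share groups and the 2 forms of values, and 18.7% of the other tested genes had an r of at least 0.9. Gbp10 passed the filter only through its 24 h values, and it shares 50-base stretches with the member Gbp6.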

How the data were processed

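Gene FPKM values were used as the authors deposited them. Per the submitters' processing notes the tools were TopHat2 2.1.0 and Cufflinks 2.2.1 and the build mm10; their annotation source is not stated. From 24421 entries, 27 with a number in place of a symbol were left out. For control and 6 h columns, the largest step of which all values of a gene were whole multiples (relative tolerance 1e-06) was found for 99.49% of 16214 genes, and gave reads per gene; intervals are not given, and reads are not independent molecules. Values were taken as log2(FPKM + 1), which understates changes of low genes, and the 11674 genes averaging 1 FPKM or more across libraries were fitted with limma 3.58.1 in R 4.3.3, with a mean per group, empirical Bayes moderation with a trend, 3 residual degrees of freedom, two-sided tests and Benjamini-Hochberg adjustment over all genes at 0.05. The fit was tested on simulated data. Values after ± are SE.

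Gene positions and transcripts came from GENCODE M21 (GRCm38), promoters from RefSeq (GRCm38.p6). Described were the 8 members, tested family genes, fixed pathway genes, the 3 smallest p-values per pathway list and comparison (not all are printed), and the 5 genes most alike. Members and lists were chosen with earlier results of these data known. Alternatives were another pseudocount, no filter, 3 other scalings, libraries left out, 2 groups alone and a replicate block. Some genes of the lists are not reported here.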

Additional observations from a re-analysis of the deposited data

Results flagged for a closer look

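For each of the 8 genes the change against control differed between the time points. This is the 24 h against 6 h contrast of the limma fit already given above, and not a further result. On the log2 scale the change at 24 h exceeded that at 6 h by 2.16 for Gbp2, 2.33 for Gbp3, 2.14 for Gbp4, 1.04 for Gbp6, 1.67 for Gbp7, 2.08 for Igtp, 0.91 for Irgm1 and 1.76 for Irgm2. Scaled to the same FPKM total, the differences of Gbp6 and Irgm1 did not pass (adjusted p = 0.0807 and 0.278). Both changes share the control libraries, which cancel in their difference. The form of the 24 h values and the time cannot be told apart. Groups of 2 libraries were too small to look for single outlying samples.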

How the results depend on the processing

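Of 120 values of single members under alternatives at 24 h against control, 103 kept direction and side of the threshold and 17 kept the direction but did not pass; against 6 h these numbers were 110 and 10. At 6 h against control 117 of 120 kept both, and the log2 fold change of Gbp2 turned to -0.04 without control replicate 1 (0.32 at the highest with 1 library left out) and to -0.04 without control replicate 1 and 24 h replicate 2 together. With these 2 libraries left out, 3 members passed at 24 h against control and 5 against 6 h, and the calls over all genes were 0 at 6 h, 316 at 24 h against control and 806 against 6 h (1275 genes had an unadjusted p under 0.05 at 6 h). With control replicate 1 and 24 h replicate 1 left out (added after seeing the data), Gbp2 at 6 h was again -0.04, 3 and 4 members passed, and the calls over all genes were 0 (1271 at an unadjusted p under 0.05), 376 and 800. These fits have 1 residual degree of freedom. Scaled to the same FPKM total (also added after seeing the data), 895 genes were called at 24 h against control and 1027 against 6 h, and 17 of 44 calls of the other genes described were lost at 24 h against control. Besides Nlrc5 and Gsdmd, these included Gabarap, Atl2 and Atl3 (adjusted p = 0.932, 0.798 and 0.733). Ifngr1, Ifngr2, Irf5 and Gm4951 were among them too (0.856, 0.932, 0.638 and 0.0563). The call of Iigp1 at 6 h was also lost (0.351). With single libraries left out, members called numbered 0 at 6 h, 7 to 8 at 24 h against control and 7 to 8 against 6 h. Calls over all genes then ranged from 7 to 59 at 6 h (118 with all libraries), from 1266 to 2345 at 24 h against control (2953) and from 1415 to 3259 at 24 h against 6 h (3237). Over all genes at 6 h, 68 were called without the filter and 31 when only the 2 groups were fitted, and quantile normalization gave 1929 at 24 h against control. As deposited, 2451 genes were higher and 502 lower at 24 h against control, and 1091 and 970 with median-of-ratios factors; against 6 h the split was 2734 and 503, and 1249 and 1106. The cause of these differences was not tested. Replicate numbers 1 and 2 recur in each group without a stated link; deviations of same-numbered libraries correlated at 0.47, 0.31 and 0.17 between groups. With the replicate block, 0, 8 and 8 members and 104, 3001 and 3351 genes were called in the 3 comparisons; of the other genes described, Ifngr2 and Irf5 lost their call at 24 h against control (adjusted p = 0.0647 and 0.0511) and Atl3 against 6 h (0.0548). Depth at 24 h is unknown; at 6 h the lowest member value rested on 28 reads.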
